A study of Mus musculus with 4 samples.

Results

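The endothelial genes described here are 36 genes made by the cells that line blood and lymphatic vessels, followed in mouse tumours grown from a Schwann cell line. The members were taken by symbol from a list that was chosen with earlier results of these data known. A member was compared when its row in the authors' tumour table had a valid estimate and at least 1 FPKM (fragments normalised for transcript length and library size) in either tumour library. Of the 36, 31 met this, among 15550 genes compared out of 35604 rows in that table. The grafted line was ESC-FC1801, mouse embryonic Schwann cells of FVB/N background carrying Nf2Flox/Flox alleles that Ad-Cre had turned to NF2-/- in vitro, so every library of the series comes from cells, or from tumours grown from cells, without a working Nf2 gene. Tumour-bearing mice received vehicle, or NXD30001 at 100 mg/kg, 3 times weekly over 4 weeks. The series names NXD30001 as an HSP90 inhibitor. Cultured ESC-FC1801 cells received DMSO, or NXD30001 at 1 uM, over 24 hours. Each of these 4 groups is 1 library, so no value below has a replicate error and no test between conditions was possible. The sources used here do not state the age, sex or strain of the host mice, how many tumours were pooled per library or how long after the last dose they were taken. The sample type field calls all 4 samples cultured cells, while titles and treatments place 2 of them in tumours, and the latter were followed.

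Endothelial cells form the inner wall of every vessel. They hold to each other through junction proteins such as VE-cadherin and claudin-5, and they are kept alive and shaped by kinase receptors for VEGF and the angiopoietins, by receptors of the BMP9 and ALK1 branch and by a small set of ETS and SOX transcription factors. In a tumour grown from a cultured line, vessels grow in from the host. A whole-tumour RNA level therefore mixes the amount of endothelium with the RNA content of each cell, and fewer endothelial cells and less RNA per endothelial cell cannot be told apart here.

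The cultured line served as a check of which members the graft cells make. Of the 35 members with a valid estimate in culture, 18 were listed at 0 in both culture libraries and 13 were above 0 but under 1 FPKM in both. The defining markers Cdh5, Tie1, Emcn, Sox18, Cldn5 and Erg were among the 18, and Pecam1 reached only 0.0251 FPKM. These genes are widely used to mark endothelium, and each was above 0 in both tumours. The remaining 4 members with an estimate, Acvrl1, S1pr1, Egfl7 and Tek, reached 1 FPKM or more in a culture library. The tables were normalised separately, so levels are set across them only to say which genes the graft line makes.

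**Figure D1:**
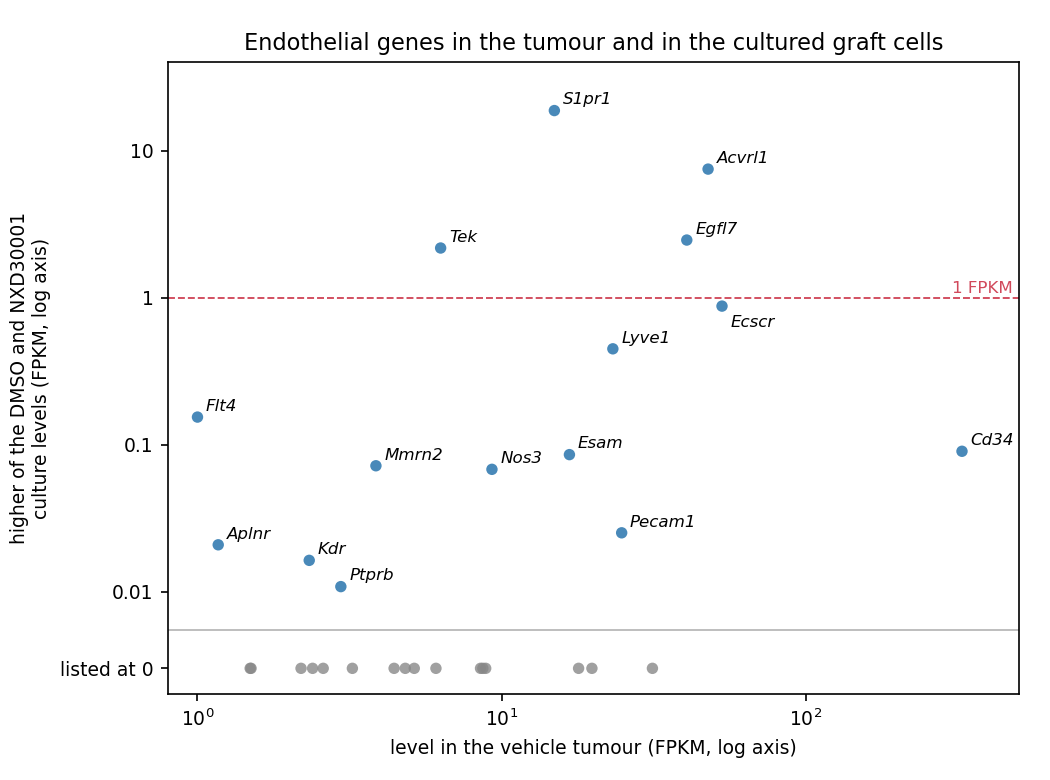
The plot of tumour against culture levels shows each of the 31 compared members at its level in the vehicle tumour (horizontal, FPKM, log axis) and at the higher of its DMSO and NXD30001 culture levels (vertical, FPKM, log axis, with a separate band for genes listed at 0 in both). Blue points have a culture level above 0 and grey points none, and S1pr1, Acvrl1, Egfl7 and Tek lie above the dashed line at 1 FPKM.

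Differences are given as log2(FPKM + 1) in the treated minus the vehicle library, a scale that understates the change of low genes. Beside them stands the treated level as a percent of the vehicle level, with a 95% range of 1.96 errors, where the error is the one implied by the authors' own statistic for that gene. This range covers the authors' model of the reads of 2 libraries and no spread between tumours. FPKM do not state depth, but 56 genes whose implied error is that of a single fragment per library place the treated tumour library at 1.19 times the depth of the vehicle library. The median implied error (log2) was 0.81 for genes between 1 and 3 FPKM and 0.35 between 10 and 30 FPKM. A ratio at the edge of the 95% range is 3.00 at the lower of these levels and 1.62 at the higher. Of the 31 compared members, 9 had a vehicle level under 3 FPKM, and single values of those are the least precise.

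Endothelial RNA was lower in the NXD30001 tumour than in the vehicle tumour for most members. Of the 31 compared, 27 had a difference below 0, where 52.7% of all compared genes did. At least a 2-fold lower level on this scale was found for 10 members, against 6.93% of all compared genes, and a 2-fold higher level for 1, against 7.32%. The median difference over the members was -0.67, with quartiles at -1.27 and -0.26, and over all compared genes it was -0.03, with quartiles at -0.35 and 0.31. The authors' deposited table called 6 members lower, where it called 2.45% of all compared genes lower, and 1 member higher, where it called 3.14% higher. Of the 6, Cdh5, Tek and Sox18 have a locus of their own, and Pecam1, Cd34 and Nos3 share the locus of another row. For 15 members the 95% range of the authors' error lay wholly below the vehicle level (7.77% of all compared genes), for 2 wholly above it (8.13%), and for the other 14 it held the vehicle level. The summed level of the 34 members with a valid tumour estimate was 704 FPKM in the vehicle tumour and 413 FPKM in the treated one (58.7% of vehicle). Cd34 alone made up much of that sum, and without it the sums were 378 and 316 FPKM (83.7%). Without Cd34 and the higher genes Ramp2 and Acvrl1, they were 322 and 182 FPKM (56.6%). Ramp2 and Acvrl1 were left out because they were higher, so this last percent is lower by that choice.

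**Figure D2:**
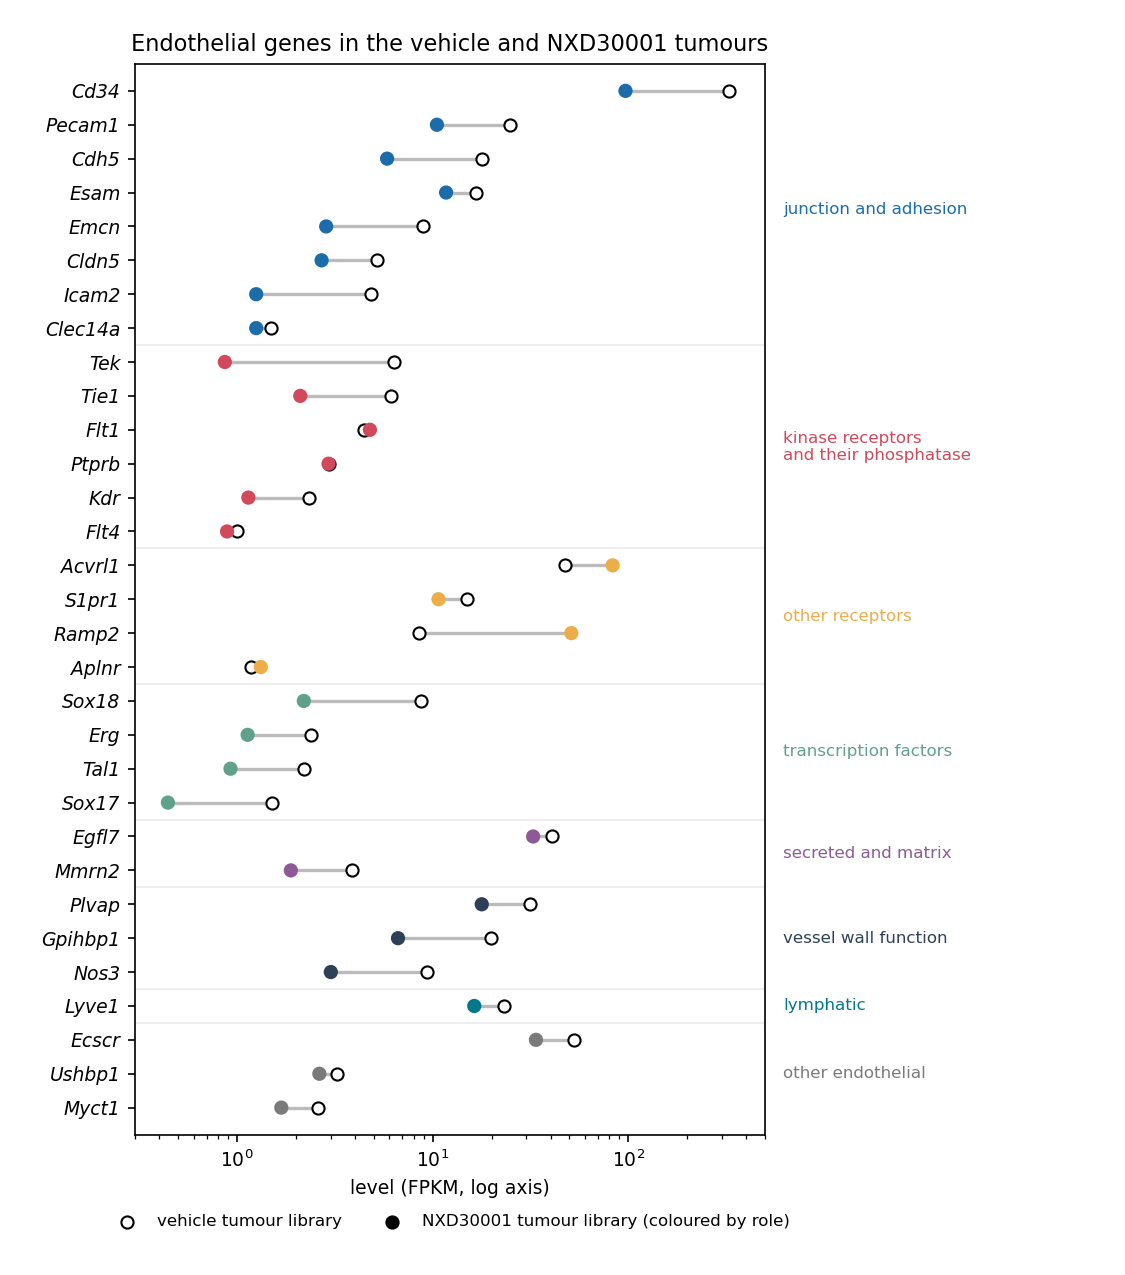
The plot of levels gives each compared member its FPKM on a log axis, as an open point for the vehicle tumour and a filled point for the NXD30001 tumour, coloured and ordered by role. Filled points lie to the left of open points for 27 of the 31 genes, and to the right for Flt1, Aplnr, Acvrl1 and Ramp2.

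All 8 junction and adhesion genes were compared and had a difference below 0. The authors' deposited table calls 3 of them lower, 5 were at least 2-fold lower, and their median difference was -1.26. Cdh5 encodes VE-cadherin, the adhesion molecule of endothelial junctions (ENSMUSG00000031871, mm9 chromosome 8, 106625599 to 106668401). It measured 17.9 FPKM in the vehicle tumour against 5.84 FPKM in the treated tumour, which is 32.6% of vehicle (95% range 20.0 to 53.3%), and the authors' deposited table calls it with q = 0.000638. Pecam1 encodes CD31, an adhesion molecule at endothelial contacts that platelets and leukocytes also carry (ENSMUSG00000020717, mm9 chromosome 11, 106515531 to 106611942). Its level was 24.8 FPKM in the vehicle tumour and 10.5 FPKM in the treated one, or 42.3% (28.8 to 62.0%), and the authors' deposited table gives q = 0.000846. Both are standard stains for vessels, and their ranges overlap. Cd34, a sialomucin of endothelial, stromal and blood progenitor cells (ENSMUSG00000016494, mm9 chromosome 1, 196765080 to 196803153), was by far the most abundant member per length. It stood at 326 FPKM in the vehicle tumour and 96.7 FPKM in the treated one, 29.7% of vehicle (20.0 to 44.2%), and the authors' deposited table gives q = 3.11e-07.

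The rest of this role was less abundant and none of it was called. Emcn, endomucin, a sialomucin of capillary and venous endothelium, was at 8.86 FPKM in the vehicle tumour and 2.85 FPKM in the treated one, 32.2% of vehicle (14.0 to 73.8%). Icam2, an adhesion ligand for leukocytes, had 4.82 FPKM and 1.25 FPKM, 26.0% (10.2 to 66.0%). For both genes the range lies below the vehicle level although the authors' deposited table has q-values of 0.178 and 0.125. Cldn5, the tight junction protein claudin-5, had 5.16 FPKM and 2.70 FPKM, 52.3% (22.1 to 124%). Esam, an immunoglobulin-family junction molecule, had 16.7 FPKM and 11.7 FPKM, 70.1% (36.7 to 134%). Clec14a, a C-type lectin of endothelium, had 1.49 FPKM and 1.25 FPKM, 83.7% (26.1 to 268%). The ranges of these 3 genes hold the vehicle level, most widely for Clec14a, the least abundant of the role.

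The kinase receptors differed among themselves. TIE2, encoded by Tek, binds the angiopoietins and steadies resting vessels, and TIE1, encoded by Tie1, is its partner. Tek (ENSMUSG00000006386, mm9 chromosome 4, 94405980 to 94541667) had the lowest difference of all members at -1.97. It was at 6.30 FPKM in the vehicle tumour and 0.864 FPKM in the treated one, 13.7% of vehicle (4.16 to 45.2%), and the authors' deposited table gives q = 0.0422, just under their limit of 0.05. Tie1 was at 6.08 FPKM and 2.10 FPKM, 34.5% (15.2 to 78.5%), with no call. Thus both TIE genes were at least 2-fold lower on the log2(FPKM + 1) scale. Ptprb encodes VE-PTP, the phosphatase that acts on TIE2. It measured 2.96 FPKM in the vehicle tumour and 2.93 FPKM in the treated one, 98.9% (57.4 to 170%). The differences between these genes were not tested.

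The VEGF receptors were at low levels in both tumours. Kdr, VEGFR2, the main signalling receptor of VEGF-A, was at 2.33 FPKM in the vehicle tumour and 1.14 FPKM in the treated one, 48.8% (24.1 to 98.8%), and was not called. Flt1, VEGFR1, which binds VEGF-A, VEGF-B and placental growth factor and acts largely as a decoy, was at 4.43 FPKM and 4.77 FPKM, 108% (54.0 to 215%). Flt4, VEGFR3, the receptor of VEGF-C on lymphatic and sprouting endothelium, was at 1.00 FPKM and 0.887 FPKM, 88.7% (39.5 to 199%). Of these 3 paralogous receptors only Kdr had a 95% range below the vehicle level, and that by a narrow margin. The range of Flt1 overlaps that of Kdr. Flt4 is the member nearest above the 1 FPKM minimum, and Sox7, described below, the nearest under it.

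Promoter sequence is shown for the 4 compared members with the largest absolute differences among those that matched the RefSeq promoter table, Tek, Cd34, Emcn and Tie1, since ERG, SOX7, SOX17 and SOX18, which are themselves members, bind ETS and SOX sites. Each sequence is the 250 bases before the annotated start in RefSeq on GRCm38.p6, 5′ to 3′ on the gene's strand. Capitals mark AGGAAG or its reverse complement CTTCCT, the exact letters called the ETS core here. Other forms of the ETS motif are not marked. The windows are chr4:94739039-94739288 on the plus strand for Tek, chr1:194938571-194938820 on the plus strand for Cd34, chr3:137340828-137341077 on the plus strand for Emcn and chr4:118489850-118490099 on the minus strand for Tie1.
Tek: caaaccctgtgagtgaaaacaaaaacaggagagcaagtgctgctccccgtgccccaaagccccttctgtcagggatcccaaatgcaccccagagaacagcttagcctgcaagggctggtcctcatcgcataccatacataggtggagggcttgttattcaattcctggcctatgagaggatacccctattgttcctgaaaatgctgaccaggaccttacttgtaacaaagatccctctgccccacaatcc
Cd34: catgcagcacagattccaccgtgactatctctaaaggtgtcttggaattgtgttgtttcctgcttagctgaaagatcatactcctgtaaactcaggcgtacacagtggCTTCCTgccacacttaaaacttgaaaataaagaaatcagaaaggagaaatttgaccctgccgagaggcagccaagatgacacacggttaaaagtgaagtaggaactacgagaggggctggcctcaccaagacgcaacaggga
Emcn: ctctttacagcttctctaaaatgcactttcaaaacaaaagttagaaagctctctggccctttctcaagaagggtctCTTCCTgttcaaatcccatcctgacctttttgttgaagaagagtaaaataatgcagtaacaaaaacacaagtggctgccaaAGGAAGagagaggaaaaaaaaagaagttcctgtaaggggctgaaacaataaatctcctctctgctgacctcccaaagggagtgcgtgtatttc
Tie1: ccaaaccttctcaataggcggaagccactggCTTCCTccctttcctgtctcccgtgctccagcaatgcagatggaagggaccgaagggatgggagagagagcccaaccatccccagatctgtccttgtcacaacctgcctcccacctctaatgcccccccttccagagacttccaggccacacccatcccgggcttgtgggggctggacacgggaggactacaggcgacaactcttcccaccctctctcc

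The 4 windows differ in what they hold. Tek has no match to the exact letters of this ETS core, and 2 matches to the SOX core ACAAT, searched on both strands like all motifs here. Cd34 has 1 ETS core, which begins 142 bases before the start, and 1 SOX core. Emcn has 2 ETS cores, beginning 174 and 93 bases before the start, and 1 SOX core, and its ETS core at 174 bases overlaps a match to the composite FOX:ETS motif AACAGGAA. Tie1 has 1 ETS core 219 bases before its start and no SOX core. Over the members, 17 matched the promoter table, and 14 of these were compared, with 19 windows in all since some have several starts. An ETS core lay in 8 of those 19 windows, where 29.5% of all 32851 windows of the same length hold one. The SOX core lay in 6 of 19 (27.7% of all windows), the FOX:ETS motif in 3 of 19, in Egfl7, Emcn and Ushbp1 (2.25% of all), the GATA motif AGATAA in 3 (9.99% of all) and the TATA box TATAAA in 3 (12.4% of all). A match describes exact letters in this window and is not a site of binding. Other forms of these motifs were not searched, so a window without a match can still hold one.

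The 4 transcription factor genes compared had differences below 0, at levels under 10 FPKM, and 1 was called. SOX7, SOX17 and SOX18 form the SOXF group, which directs vessel and lymphatic development. Sox18 (ENSMUSG00000046470, mm9 chromosome 2, 181404541 to 181406345) was at 8.67 FPKM in the vehicle tumour and 2.19 FPKM in the treated one, 25.2% (11.2 to 57.0%), and the authors' deposited table calls it at q = 0.0367. Sox17, a factor of arterial endothelium, was at 1.50 FPKM and 0.442 FPKM, 29.4% (10.8 to 80.0%), a difference of -0.80 that becomes -1.77 with no pseudocount. Sox7 was under the minimum at 0.943 FPKM and 0.263 FPKM and entered no count. The SOXF genes lay at 25.2% (Sox18), 27.9% (Sox7, 8.30 to 93.8%) and 29.4% (Sox17) of vehicle. Their ranges are wide, so the closeness of these values is not established. Erg, the ETS factor that maintains endothelial identity, was at 2.39 FPKM and 1.13 FPKM, 47.5% (15.0 to 151%). Tal1, a factor of endothelial and blood progenitors, was at 2.19 FPKM and 0.924 FPKM, 42.1% (7.35 to 241%). Neither Erg nor Tal1 can be placed on one side of the vehicle level at this precision.

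The 3 genes of vessel wall function had differences below 0, with a median of -1.36, and 1 was called. Nos3, endothelial nitric oxide synthase (ENSMUSG00000028978, mm9 chromosome 5, 23870628 to 23897961), had 9.29 FPKM in the vehicle tumour and 3.01 FPKM in the treated one, 32.4% (19.3 to 54.3%), and the authors' deposited table gives q = 0.00138. Its locus is also given for Atg9b, which had 70.8 FPKM in the vehicle tumour and 92.2 FPKM in the treated one. Gpihbp1 carries lipoprotein lipase to the capillary lumen and is made by capillary endothelium. It had 19.8 FPKM in the vehicle tumour and 6.64 FPKM in the treated one, 33.5% (15.4 to 73.0%), with no call. Plvap, the diaphragm protein of fenestrated vessels, had 31.3 FPKM and 17.8 FPKM, 57.0% (36.4 to 89.1%), also with no call.

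**Figure D3:**
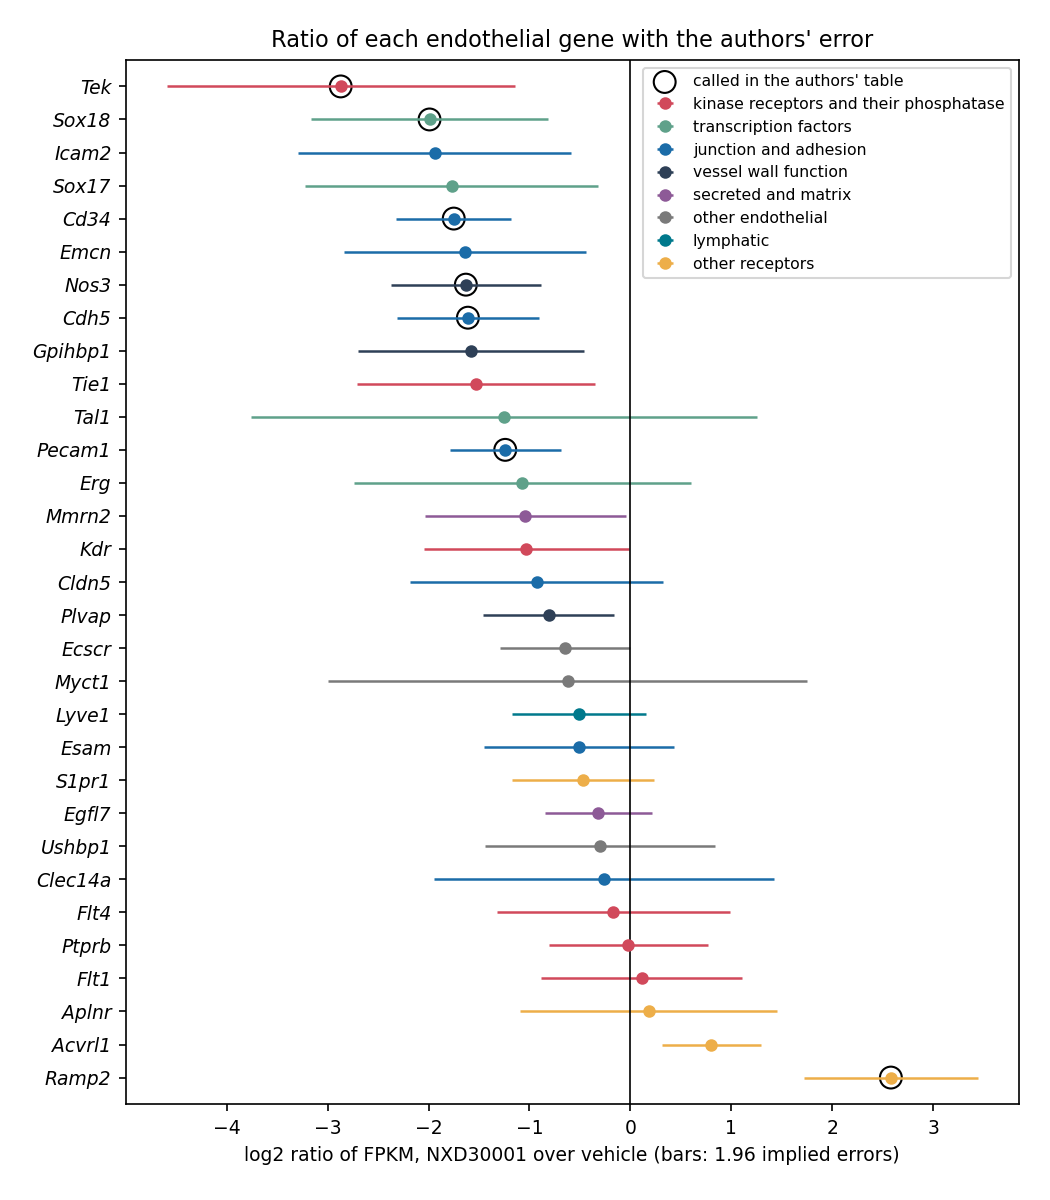
The plot of ratios orders the compared members by the log2 ratio of treated to vehicle FPKM, with no pseudocount, and draws bars of 1.96 implied errors to each side. Colours give the role and rings mark the 7 genes called in the authors' deposited table, with Tek, Sox18, Cd34, Nos3, Cdh5 and Pecam1 to the left of the line at equal levels and Ramp2 to the right.

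Of the secreted and matrix members 2 of 4 were compared. Egfl7, a secreted factor of sprouting endothelium, was at 40.6 FPKM in the vehicle tumour and 32.6 FPKM in the treated one, 80.3% (55.5 to 116%). Its locus is shared with Agpat2 and the row of mmu-mir-126, the microRNA of its intron. The graft line made some Egfl7, with 2.47 FPKM under DMSO and 0.474 FPKM under the drug. Mmrn2, multimerin-2 of the vessel matrix, was at 3.86 FPKM and 1.88 FPKM, 48.6% (24.5 to 96.6%). Vwf, the clotting factor stored in endothelium and platelets, was marked as having too little data at 0.295 FPKM and 0.607 FPKM and was not compared. Mmrn1 was listed at 0 in both tumours.

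The lymphatic members differed in level. Prox1, the factor that defines lymphatic endothelium, was listed at 0.0990 FPKM with vehicle and at 0 with NXD30001. Lyve1, a hyaluronan receptor of lymphatic endothelium and of some tissue macrophages, was at 23.2 FPKM and 16.3 FPKM, 70.3% (44.4 to 111%). Prox1 was thus near 0 in both tumours and Lyve1 was not, and a list of macrophage markers had a median difference of -0.73 with 10 of its 11 compared genes below 0. The part of macrophages in the Lyve1 level was not tested.

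Among the members with other roles, Ecscr, a surface protein of endothelial chemotaxis, was abundant at 53.0 FPKM in the vehicle tumour and 33.7 FPKM in the treated one, 63.7% (40.8 to 99.5%). Myct1, a membrane protein gene of vessels, was at 2.59 FPKM and 1.68 FPKM, 65.0% (12.6 to 335%). Ushbp1 was at 3.23 FPKM and 2.63 FPKM, 81.4% (37.2 to 178%). All 3 had differences below 0 and none was called.

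Of the receptors outside the kinase group, Ramp2 and Acvrl1 had a 95% range above the vehicle level, and those of S1pr1 and Aplnr held it. Ramp2, the subunit that turns the calcitonin receptor-like receptor into an adrenomedullin receptor (ENSMUSG00000001240), was the only member called higher. It measured 8.52 FPKM in the vehicle tumour and 51.1 FPKM in the treated one, 600% of vehicle (331 to 1086%), and the authors' deposited table gives q = 4.88e-07. Its row covers a locus given for 7 genes (mm9 chromosome 11, 101107342 to 101163600), so its reads are not assigned with certainty. In the same locus Vps25, a subunit of the endosomal sorting machinery, had 152 FPKM in the vehicle tumour and 53.0 FPKM in the treated one and was called lower in the authors' deposited table. Becn1 and Ccdc56 in this locus had 90.2 and 125 FPKM and 43.2 and 58.2 FPKM. How reads were shared between Ramp2 and Vps25 was not tested.

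Acvrl1 encodes ALK1, the receptor through which BMP9 quiets endothelium (ENSMUSG00000000530, mm9 chromosome 15, 100958953 to 100975767). It was higher in the treated tumour, at 83.1 FPKM against 47.7 FPKM, 174% of vehicle (124 to 245%), and the authors' deposited table leaves it uncalled at q = 0.0524. Its co-receptor Eng, endoglin, had a failed estimate in both tables at a locus given for 34 genes, and its 0 is no measurement. S1pr1, the sphingosine 1-phosphate receptor of endothelium and lymphocytes, was at 14.9 FPKM in the vehicle tumour and 10.7 FPKM in the treated one, 72.0% (44.4 to 117%). Aplnr, the apelin receptor, was at 1.17 FPKM and 1.32 FPKM, 113% (46.8 to 273%). Over this role 4 of 5 members were compared, with a median difference of 0.44 and 3 of the 4 above 0.

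Of the 4 members at 1 FPKM or more in culture, 3 had opposite directions in culture and in tumours. How many of all compared genes did so was not counted. In culture Acvrl1 was at 7.51 FPKM under DMSO and 2.31 FPKM under the drug, and the authors' deposited table called it lower, as it did 7.14% of compared culture genes. Tek was at 0.0324 FPKM under DMSO and 2.18 FPKM under the drug, and the authors' deposited table called it higher, as it did 2.75% of compared culture genes. S1pr1 was at 5.79 FPKM and 18.8 FPKM, with no call, and its range in the tumours (44.4 to 117%) held the vehicle level. The part of graft RNA in the tumour levels of Acvrl1, S1pr1, Egfl7 and Tek was not tested. The median difference in the tumours without these 4 genes, also a set chosen after seeing the data, was -0.73, with 9 of 27 at least 2-fold lower.

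Blood cells share some members, and most of their markers were lower in the treated tumour too. Pecam1, Cd34, Icam2, Tal1, Lyve1, S1pr1 and Eng are also made by leukocytes, platelets or blood progenitors. Among the leukocyte markers 9 of 10 compared were below 0, with a median difference of -0.42 and summed levels of 483 FPKM in the vehicle tumour and 301 FPKM in the treated one. Ptprc, CD45, was at 17.8 FPKM and 4.53 FPKM, which its implied error of 1.19 (log2) does not separate. Cd52 was at 0.395 FPKM and 14.2 FPKM. Of the platelet markers 4 of 11 were compared, with 3 below 0, a median difference of -0.18 and none called. Pf4, with the largest difference of the 4, was at 55.6 FPKM and 21.5 FPKM. Of the red cell genes 4 of 5 compared were below 0, and the summed list was 315 FPKM in the vehicle tumour and 5.10 FPKM in the treated one, with Hba-a1 at 110 FPKM and listed at 0. Hba-a1 is nearly identical to Hba-a2, so the split between them is uncertain. In a set chosen after seeing the data, the endothelial genes without those 7, the median difference was -0.64 and 7 of 25 were at least 2-fold lower. The part of blood cells in the values of the 7 was not tested.

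Genes of other vessel and graft cells had other medians. Mural cells, the pericytes and smooth muscle cells around vessels, had 12 of 16 listed genes compared, a median difference of -0.17 and 8 below 0. Within that list Acta2 was at 82.0 FPKM in the vehicle tumour and 186 FPKM in the treated one, and Pdgfrb at 20.9 and 45.9 FPKM, while Anpep was at 39.8 and 4.26 FPKM. Ndufa4l2, with the next largest difference among those compared, was at 22.4 and 11.2 FPKM. Of the 16 listed, 5 reached 1 FPKM in a culture library. Among them were Pdgfrb, at 1.98 FPKM under DMSO and 7.73 FPKM under NXD30001, and Anpep, at 0.348 and 1.61 FPKM. The part of graft RNA in the tumour levels of this list was not tested. The pericyte gene Rgs5, chosen after its values were seen, was at 1.90 FPKM and 2.56 FPKM. Its implied error of 0.59 (log2) does not separate these levels. Rgs5 was among the 4 compared genes of the list above 0. Notch3, Cspg4, Kcnj8 and Abcc9, also named after their values were seen, were among the 8 below 0. Fibroblast markers had a median of -0.11 over 10 genes, with none past 2-fold. Schwann cell markers were above 0 in 11 of 11 compared, with a median of 1.55 and summed levels of 173 FPKM in the vehicle tumour and 593 FPKM in the treated one. FPKM are shares of a library, and the part of the higher Schwann cell signal in the endothelial values was not tested.

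A wider list of 52 further genes of endothelium and its subtypes showed a smaller shift. Of 39 compared, 30 were below 0 (52.7% of all compared genes), 7 were at least 2-fold lower (6.93%) and 2 at least 2-fold higher (7.32%). The median was -0.29, and 18 of the 52 reached 1 FPKM in a culture library. The largest differences were in fatty acid handling genes of capillaries, Fabp4 at 65.8 FPKM in the vehicle tumour and 12.5 FPKM in the treated one and Cd36 at 10.3 and 1.68 FPKM, both made by fat cells and macrophages too. Next came Lmo2, a partner of TAL1, at 18.5 and 3.90 FPKM, and Mfsd2a, a lipid transporter of brain vessels, at 7.85 and 1.79 FPKM. In culture Mfsd2a was at 2.91 FPKM under DMSO and 0.732 FPKM under NXD30001. The 2 higher genes, named after their values were seen, were Mcam at 94.9 and 201 FPKM and Hey1 at 0.390 and 2.20 FPKM, and the graft line made both.

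A list of angiogenic ligands, not all of them ligands of the receptors above, differed less than the endothelial genes. Of 23 listed, 21 were compared. On the log2(FPKM + 1) scale none was at least 2-fold higher (7.32% of all compared genes) and 3 were at least 2-fold lower (6.93%). The median difference was -0.12. The authors' deposited table called 2 lower (2.45% of all compared genes) and none higher. Angptl4 was at 84.1 FPKM in the vehicle tumour and 18.4 FPKM in the treated one. Dll4, a Notch ligand of sprouting endothelium, was at 6.49 and 0.802 FPKM, which its implied error of 1.67 (log2) does not separate. Sema3c was at 29.0 and 13.6 FPKM in the tumours, and in culture at 25.6 FPKM under DMSO and 177 FPKM under NXD30001. Pgf, a ligand of VEGFR1, was at 7.78 and 16.2 FPKM in the tumours. Of the 23 ligands, 14 reached 1 FPKM in a culture library, and the part of graft RNA in their tumour levels was not tested. The VEGF receptor ligand gene Vegfa, chosen after its values were seen, was at 158 FPKM and 170 FPKM, which the implied error of 0.18 (log2) does not separate. The TIE2 ligand genes, also named after their values were seen, were Angpt1 at 7.96 and 6.02 FPKM and Angpt2 at 2.37 and 2.19 FPKM.

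**Figure D4:**
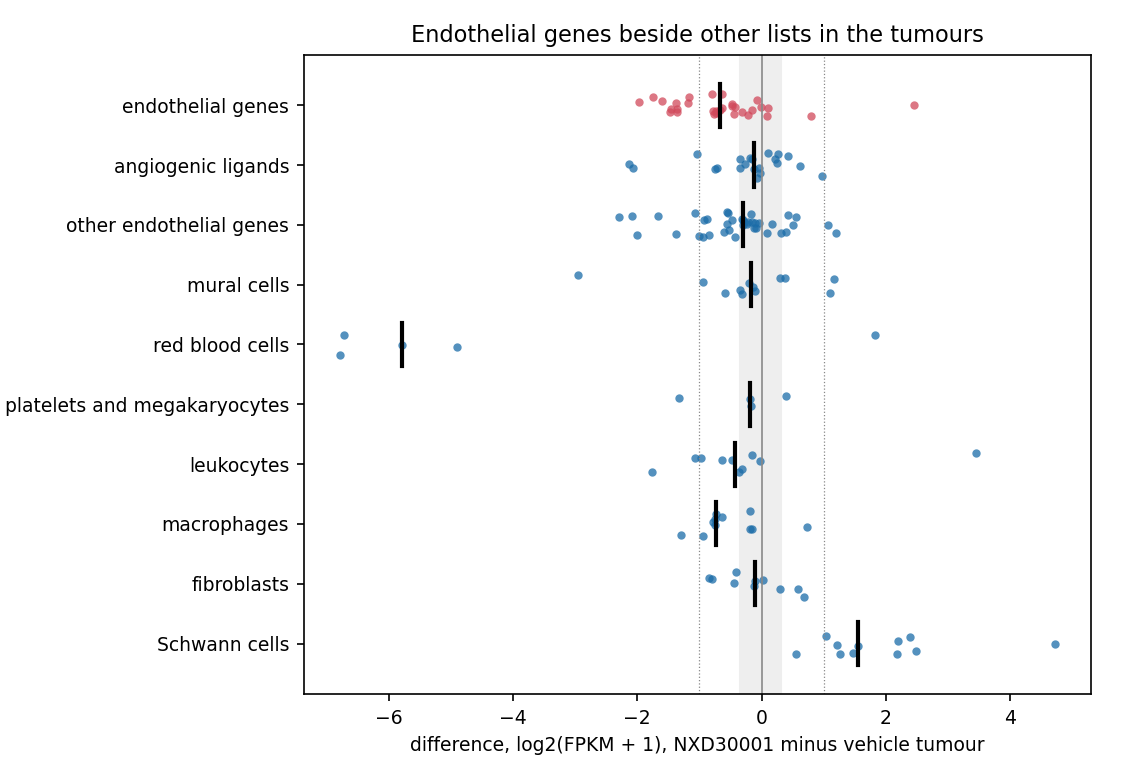
The plot of lists shows the difference, log2(FPKM + 1) in the NXD30001 minus the vehicle tumour, of every compared gene as a point, with the median of each list as a black bar, the quartiles of all compared genes as a grey band and dotted lines at 2-fold. The endothelial median lies at -0.67, outside the grey band of -0.35 to 0.31, with Ramp2 alone beyond the right dotted line in that list. The medians of the macrophage (-0.73), leukocyte (-0.42) and red blood cell (-5.79) lists also lie below the band. That of the Schwann cell list (1.55) lies above it.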

How the data were processed

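Total RNA was taken from cultured ESC-FC1801 cells and from tumours with Trizol and a column kit, per the labels' protocols. CASAVA, TopHat 1.2.0, Cufflinks 1.0.2, Cuffdiff and the build mm9 are named in the submitters' processing notes. The sources used here do not state the strand handling. Both tables deposited by the authors, 1 for tumours and 1 for culture, list FPKM for an untreated and a treated library, with loci whose starts count from 0 (printed here from 1). Per the file headers, they also hold a ratio of the levels, its natural log, a test statistic and q-value used here as scores, and a p-value that was not used. The q-values of the authors' tumour table reach 1.82, and every gene they call has q under 0.05.

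In Python 3.11.15 with pandas 2.3.3 and numpy 2.4.6, differences were log2(FPKM + 1), treated minus untreated, for rows with status OK and 1 FPKM or more in either library. Tumour rows marked FAIL (347) or LOWDATA (449) were left out. The implied error is the log fold divided by the authors' statistic. With 1 library per group no test was run. The difference and count steps were tested on simulated data. That simulation raised low levels, used an error smaller than that of the members and planted changes well past the 2-fold cut. It therefore checked the steps and not the counts at the levels and errors of the members. The members, roles and lists were chosen with earlier results of these data known. Every member is named, and of another list the 4 genes with the largest differences at most, and others as said. Alternatives covered the pseudocount, the minimum, shared loci and scaling.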

Additional observations from a re-analysis of the deposited data

Results flagged for a closer look

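For 3 endothelial genes that the graft line also makes, the treated library lay on one side of the untreated library in tumours and on the other in culture, which drew attention to them. Each direction rests on 1 library per group, the doses and times differ, and the difference between tumours and culture was not tested. Tek differed by -1.97 in tumours and by 1.63 in culture on the log2(FPKM + 1) scale. Acvrl1 differed by 0.79 in tumours and by -1.36 in culture. S1pr1 differed by -0.44 in tumours and by 1.54 in culture.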

How the results depend on the processing

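Across the 10 alternatives run for it, the median difference of the endothelial genes ranged from -0.93 (no pseudocount) to -0.64, and the number at least 2-fold lower from 7 to 15. Leaving out rows whose locus is given for another gene lowered the members called lower in the authors' table from 6 to 3, and the genes of the whole table past 2-fold from 1077 to 532 lower and from 1139 to 555 higher, with fewer genes compared. The members that the culture makes numbered 4 at 1 FPKM, 17 with no minimum, 7 at 0.1 FPKM, 2 at 3 FPKM and 2 without shared loci. Of 230 values of single members under an alternative, 227 moved by no more than the gene's implied error, and the only change of sign was Ptprb, from -0.01 to 0.02 after centring. The sets without blood cell genes and without genes the culture makes were chosen after seeing the data. No paired analysis was possible because each group has 1 library and the labels give no replicate numbers.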

Other observations

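Notch signalling selects sprouting and arterial endothelial cells, and its genes in the lists are singled out here after their values were seen. The receptor gene Notch4, largely endothelial, was at 39.5 FPKM in the vehicle and 20.9 FPKM in the NXD30001 tumour, with 0.309 FPKM or less in culture. Its implied error of 0.53 (log2) does not separate the tumour levels. The graft line makes several of the others. Notch1 was at 66.8 and 31.4 FPKM in the tumours, which its implied error of 1.03 (log2) does not separate. In culture it was at 19.1 FPKM under DMSO and 4.46 FPKM under NXD30001. The ligand gene Jag1 was at 13.2 and 7.44 FPKM in the tumours and at 1.42 and 24.1 FPKM in culture. Jag2, another ligand gene, was at 3.08 and 2.75 FPKM in the tumours. The ligand gene Dll4, given above, was at 6.49 and 0.802 FPKM, and the receptor gene Notch3 at 4.21 and 2.47 FPKM. The target gene Hey1 was at 0.390 and 2.20 FPKM in the tumours and at 10.0 and 7.06 FPKM in culture, and Hey2 was listed at 0 in both tumours. The authors' deposited tumour table calls none of these genes, and their calls in culture are not given here. The endothelial receptor genes Cd93 and Robo4, singled out in the same way, stood at 20.6 and 7.39 FPKM for Cd93 and 4.19 and 1.73 FPKM for Robo4, and the authors' deposited table calls Cd93 lower.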
